A study of Mus musculus with 8 samples.

Results

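Mouse mitochondrial DNA encodes 7 subunits of respiratory complex I, mt-Nd1, mt-Nd2, mt-Nd3, mt-Nd4l, mt-Nd4, mt-Nd5 and mt-Nd6, and their RNAs were followed in irradiated and nonirradiated mouse skin. The members were taken by gene symbol, and all 7 were found among the 22564 protein-coding genes of the table. Skin of male C57Bl/6 mice aged 4 weeks was collected 24 h after a single 35 Gy dose of 6 MeV electrons, given at 750 cGy per min, or from areas left out of the beam. Areas inside and outside the beam may differ in body site, and such a difference cannot be told apart from irradiation here. Each group holds 4 libraries of total RNA depleted of ribosomal RNA. The labels do not say that the libraries came from separate mice, so a p-value here speaks of the spread among these libraries only, and some of it may be technical. The members were selected on their measured difference in FPKM and counts between irradiated and nonirradiated skin, known from earlier results, as was the comparison of mt-Nd6 with the other 6. Their levels and differences are therefore given as a description, without a test.

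Complex I oxidises NADH, passes the electrons to ubiquinone and pumps protons across the inner mitochondrial membrane. Its mitochondrially encoded subunits all sit in the membrane arm, and nuclear genes supply the rest. Mitochondrial DNA is transcribed from both strands as long precursor RNAs, from which messenger RNAs are released largely by excision of the transfer RNAs between them. In skin, complex I serves keratinocytes, fibroblasts, fat cells, hair follicles and the thin sheet of skeletal muscle under the dermis.

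In the GENCODE M21 annotation of GRCm38, the assembly of the mm10 build named by the submitters, mt-Nd1 lies at chrM:2751-3707, mt-Nd2 at chrM:3914-4951 and mt-Nd3 at chrM:9459-9806. Further along the same strand are mt-Nd4l at chrM:9877-10173, mt-Nd4 at chrM:10167-11544 and mt-Nd5 at chrM:11742-13565. These 6 are called here the heavy-strand members, after the strand that serves as their template. mt-Nd6 runs the opposite way, at chrM:13552-14070, and is the only one of the 13 mitochondrial protein-coding genes on the minus strand. Each gene is a single exon.

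The first 60 bases of 4 members show how mt-Nd6 differs in base composition from the others, and the capitals mark every G. Shown are mt-Nd1, the member with the highest mean level, mt-Nd4, mt-Nd5, the neighbour of mt-Nd6, and mt-Nd6 itself, each read along its own RNA from the GENCODE M21 transcripts.
mt-Nd1 (chrM:2751-2810, plus strand): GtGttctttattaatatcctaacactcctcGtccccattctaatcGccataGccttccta
mt-Nd4 (chrM:10167-10226, plus strand): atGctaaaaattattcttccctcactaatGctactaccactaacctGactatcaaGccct
mt-Nd5 (chrM:11742-11801, plus strand): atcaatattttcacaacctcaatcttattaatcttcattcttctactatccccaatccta
mt-Nd6 (chrM:14011-14070, minus strand): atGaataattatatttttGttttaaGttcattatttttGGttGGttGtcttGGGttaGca
These stretches hold 5 G in mt-Nd1, 4 in mt-Nd4, 0 in mt-Nd5 and 12 in mt-Nd6.

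Over the whole gene, G made up 28.1% of the mt-Nd6 RNA and between 8.0% and 11.6% of the heavy-strand members. C went the other way, at 5.97% in mt-Nd6 and between 22.1% and 30.0% in the others. The summed share of G and C was 34.1% in mt-Nd6, inside the range of 33.0% to 41.1% of the other 6 members. The difference thus lies in which strand carries the G.

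**Figure D1:**
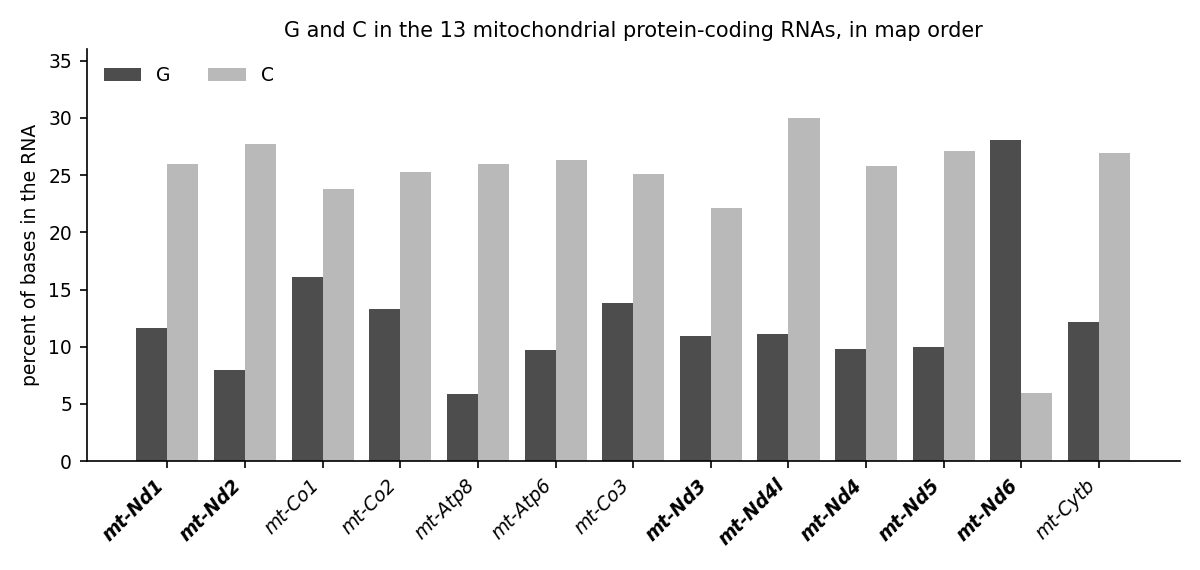
Percent of G (dark bars) and C (light bars) among the bases of each of the 13 mitochondrial protein-coding RNAs, in map order, with the 7 complex I subunits in bold. mt-Nd6 has 28.1% G and 5.97% C, and the other 12 genes have at most 16.1% G and at least 22.1% C.

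Neighbouring members also share bases, which limits how reads can be assigned, and the capitals in the next sequences mark the shared bases. mt-Nd4l and mt-Nd4, which are carried by a common messenger RNA in mammals, overlap by 7 bases on the same strand, at chrM:10167-10173. The shared bases hold the start codon of mt-Nd4 and the stop codon of mt-Nd4l. mt-Nd5 and mt-Nd6 overlap by 14 bases on opposite strands, at chrM:13552-13565, where both coding sequences end.
End of mt-Nd4l (chrM:10144-10173, plus strand): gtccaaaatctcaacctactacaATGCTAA
Start of mt-Nd4 (chrM:10167-10196, plus strand): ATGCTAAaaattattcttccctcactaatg
End of mt-Nd5 (chrM:13536-13565, plus strand): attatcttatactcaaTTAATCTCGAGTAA
End of mt-Nd6 (chrM:13552-13581, minus strand): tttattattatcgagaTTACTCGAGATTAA

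The libraries held between 5036285 and 6626653 reads recovered from the deposited estimated counts. Members were covered by between 949 reads (mt-Nd3) and 231855 reads (mt-Nd4) per library, so counting error was small beside the spread between libraries. Values above 0 were listed for 9311 to 12921 genes in irradiated and 12566 to 14610 in nonirradiated libraries, fewest in irradiated replicates 4 and 1. The 8 skin markers (keratins, loricrin, dermal collagens and decorin) were all above 0 in every library, with summed levels of 1954 to 3481 FPKM in irradiated and 1446 to 2055 FPKM in nonirradiated skin. FPKM is the deposited level, the number of fragments scaled to transcript length and sequencing depth.

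Irradiated skin had lower levels of 5 heavy-strand members, with no overlap between the groups, and a higher level of mt-Nd6, also with no overlap, while mt-Nd3 overlapped. Over all 13324 genes tested, the groups did not overlap for 4.48% of genes in the lower and 3.99% in the higher direction. With quantile normalization, which forces the same distribution on every library, mt-Nd2 changed sign to 0.30 on the log2 scale. mt-Nd1 and mt-Nd5 came to -0.05 and -0.02, mt-Nd4l to -0.69 and mt-Nd4 to -0.62, and mt-Nd6 to 1.94. In the limma fit across all genes, 2 of the 7 members, mt-Nd4l and mt-Nd4, passed an adjusted p of 0.05 in the lower direction and 0 in the higher, where 0.128% of all genes passed lower and 0.12% higher. On recovered reads 5 members passed in edgeR, as did 1.08% of all genes, and 6 in DESeq2, as did 6.19%. With irradiated replicates 1 and 4 left out of the limma fit, a setting chosen after seeing the data, 0 members passed, beside 1 of all 13324 genes. There 6 members had an unadjusted p under 0.05, beside 1665 of all genes. Since this contrast was known when the members were selected, nothing is read from these counts.

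mt-Nd1, which helps form the ubiquinone site, was at 8096, 7960, 10755 and 10353 FPKM in irradiated replicates 1 to 4 and at 12750, 19132, 17702 and 24029 FPKM in the nonirradiated ones. All irradiated libraries lay below all nonirradiated ones, and nonirradiated replicate 1 was the lowest of its group. The means were 9291 ± 1469 and 18403 ± 4641 FPKM (SD, n = 4 each), -0.96 on the log2 scale (SE 0.21).

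mt-Nd2, an antiporter-like proton-pumping subunit, was at 4889, 4298, 4733 and 4885 FPKM in irradiated libraries and at 4993, 9329, 8851 and 9432 FPKM in nonirradiated ones. Nonirradiated replicate 1 lay just above the irradiated libraries and far below the rest of its own group. The log2 change was -0.75 (SE 0.21), and -0.97 without that library.

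mt-Nd4, another antiporter-like subunit, was at 4203, 5140, 5303 and 6690 FPKM in irradiated libraries and at 16303, 16176, 19077 and 14964 FPKM in nonirradiated ones. The groups stood far apart, and the nonirradiated mean of 16630 ± 1739 FPKM was 3.12 times the irradiated mean of 5334 ± 1025 FPKM (SD, n = 4 each). Its log2 change of -1.65 (SE 0.17) was the most negative of the 7.

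mt-Nd4l, a small membrane subunit that precedes mt-Nd4 on the same messenger RNA, was at 3708, 2892, 3705 and 3631 FPKM in irradiated libraries and at 12146, 9842, 8003 and 9094 FPKM in nonirradiated ones. It was close to mt-Nd4 in the size of its difference, at -1.48 on the log2 scale (SE 0.17). The log2 ratio of mt-Nd4l to mt-Nd4 within a library was -0.60 ± 0.32 in irradiated and -0.78 ± 0.35 in nonirradiated skin (SD, n = 4 each), and its groups overlapped.

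mt-Nd5, the largest antiporter-like subunit, was at 3855, 3540, 3549 and 3686 FPKM in irradiated libraries and at 5985, 6768, 5622 and 7238 FPKM in nonirradiated ones. It was the steadiest member in irradiated skin, with a coefficient of variation of 4.04% against 11.5% in nonirradiated skin. Its log2 change was -0.80 (SE 0.15).

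mt-Nd3, a small subunit at the junction of the membrane arm and the matrix arm, was at 1365, 1539, 1025 and 589 FPKM in irradiated libraries and at 864, 1478, 1472 and 777 FPKM in nonirradiated ones. The groups overlapped throughout, at -0.05 on the log2 scale (SE 0.33). Leaving out 1 library at a time moved it between -0.23 and 0.23, leaving out irradiated replicates 1 and 4 gave 0.19, and quantile normalization gave -0.70. Its RNA of 348 bases is short. Its deposited counts and FPKM correspond to an effective length of 185 to 204 bases, or 53.1% to 58.7% of the RNA, beside 91.0% to 92.1% for mt-Nd5.

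mt-Nd6, a membrane subunit beside mt-Nd4l and the only one encoded on the other strand, was at 9139, 5890, 4042 and 5337 FPKM in irradiated libraries and at 2821, 2537, 1538 and 1458 FPKM in nonirradiated ones. Every irradiated library lay above every nonirradiated one. The irradiated mean of 6102 ± 2168 FPKM was 2.92 times the nonirradiated mean of 2089 ± 692 FPKM (SD, n = 4 each), 1.54 on the log2 scale (SE 0.29). Of all genes tested, 98.4% had a lower change.

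**Figure D2:**
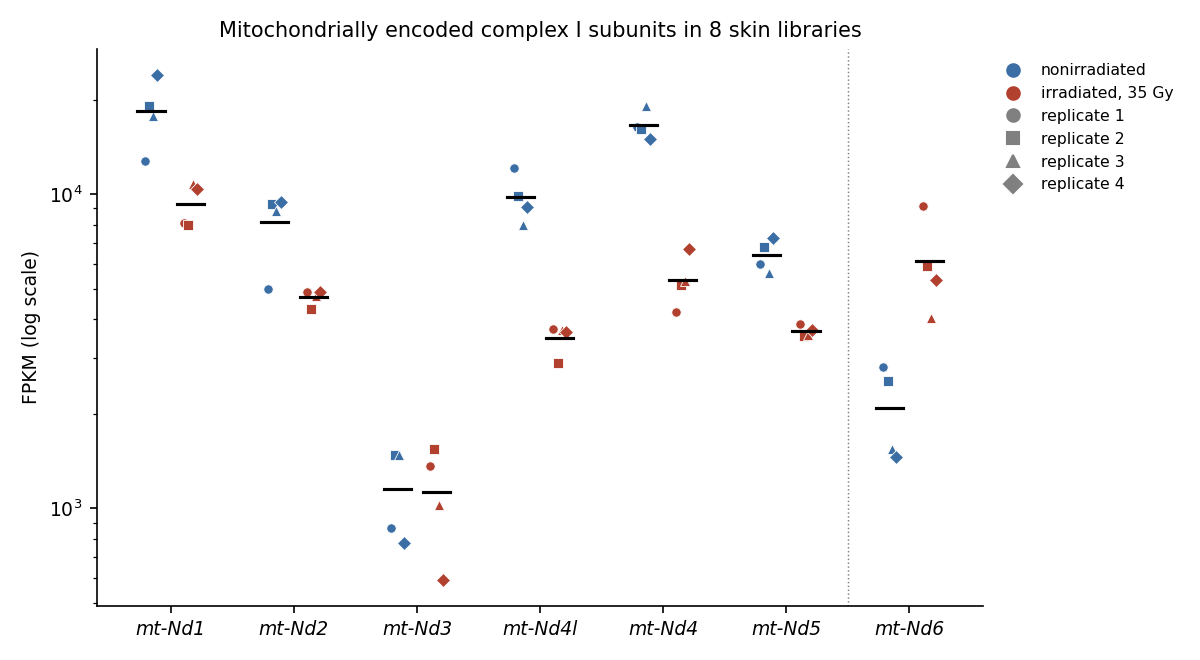
FPKM on a log scale of the 7 mitochondrially encoded complex I subunits, with 1 point per library, marker shape for the replicate number, colour for the group and black bars for the group means. The dotted line sets mt-Nd6 apart from the 6 heavy-strand members, and irradiated libraries lie lower for 5 of these 6 and higher for mt-Nd6. After quantile normalization mt-Nd2 changes sign, and the log2 changes of mt-Nd1 and mt-Nd5 come to -0.05 and -0.02.

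The order of the levels differed between the groups. In nonirradiated skin the mean FPKM ran from mt-Nd1 and mt-Nd4 through mt-Nd4l, mt-Nd2 and mt-Nd5 down to mt-Nd6 and mt-Nd3. The order in both groups depends on the length correction in FPKM. Its effective length was 45.5% to 51.8% of the RNA for mt-Nd4l and 68.3% to 72.1% for mt-Nd6, beside 91.0% to 92.1% for mt-Nd5. Per base of the whole RNA, short members would stand lower beside long ones. mt-Nd1 exceeded mt-Nd4 in 2 of 4 libraries and mt-Nd4l exceeded mt-Nd2 in 2 of 4, so these neighbours did not differ beyond their spread. The ranges of mt-Nd2 and mt-Nd5 overlapped too. The clear steps were from mt-Nd4 to mt-Nd4l, at 1.70 times, and from mt-Nd5 to mt-Nd6, at 3.07 times, where ranges did not overlap.

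In irradiated skin mt-Nd1 still had the highest mean, followed by mt-Nd6, mt-Nd4, mt-Nd2, mt-Nd5, mt-Nd4l and mt-Nd3. mt-Nd6 exceeded mt-Nd4 in 2 of 4 libraries, and the ranges of mt-Nd1 and mt-Nd6 overlapped. mt-Nd6 ranked 6 of 7 in every nonirradiated library, and 1, 2, 4 and 3 in irradiated replicates 1 to 4. mt-Nd3 was the lowest member in all 8 libraries.

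Ratios within a library do not depend on a common scaling factor per library. The mean of the 6 heavy-strand members was taken on log2(FPKM + 1), as a geometric mean. The log2 ratio of mt-Nd6 to that mean was 1.25, 0.65, 0.04 and 0.52 in irradiated replicates 1 to 4. In the nonirradiated ones it was -1.17, -1.68, -2.31 and -2.36. Thus mt-Nd6 stood at or above the geometric mean in each irradiated library, though it ranked only 4 of 7 in irradiated replicate 3. In each nonirradiated library it stood below that mean. The difference between the groups was 2.49 on the log2 scale, from 0.62 ± 0.50 to -1.88 ± 0.57 (SD, n = 4 each), or 5.63-fold, and 2.24 with quantile normalization.

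Against mt-Nd5 alone, its neighbour on the map, the irradiated libraries had a log2 ratio of 0.68 ± 0.44 and the nonirradiated ones of -1.67 ± 0.53 (SD, n = 4 each). Against mt-Cytb, the cytochrome b gene on its other side, it was 0.03 ± 0.78 and -2.53 ± 0.42 (SD, n = 4 each). Neither ratio overlapped between the groups. Among heavy-strand members the log2 ratio of mt-Nd2 to mt-Nd1 was -0.97 ± 0.20 after irradiation and -1.18 ± 0.19 without it (SD, n = 4 each), with overlap. Ratios within the heavy strand also differed: mt-Nd3 to mt-Nd4 stood at -1.62, -1.74, -2.37 and -3.50 in irradiated replicates 1 to 4 and at -4.24, -3.45, -3.70 and -4.27 in the nonirradiated ones. The means differed by 1.60 on the log2 scale, or 3.04-fold, and the groups overlapped only through irradiated replicate 4 and nonirradiated replicate 2.

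**Figure D3:**
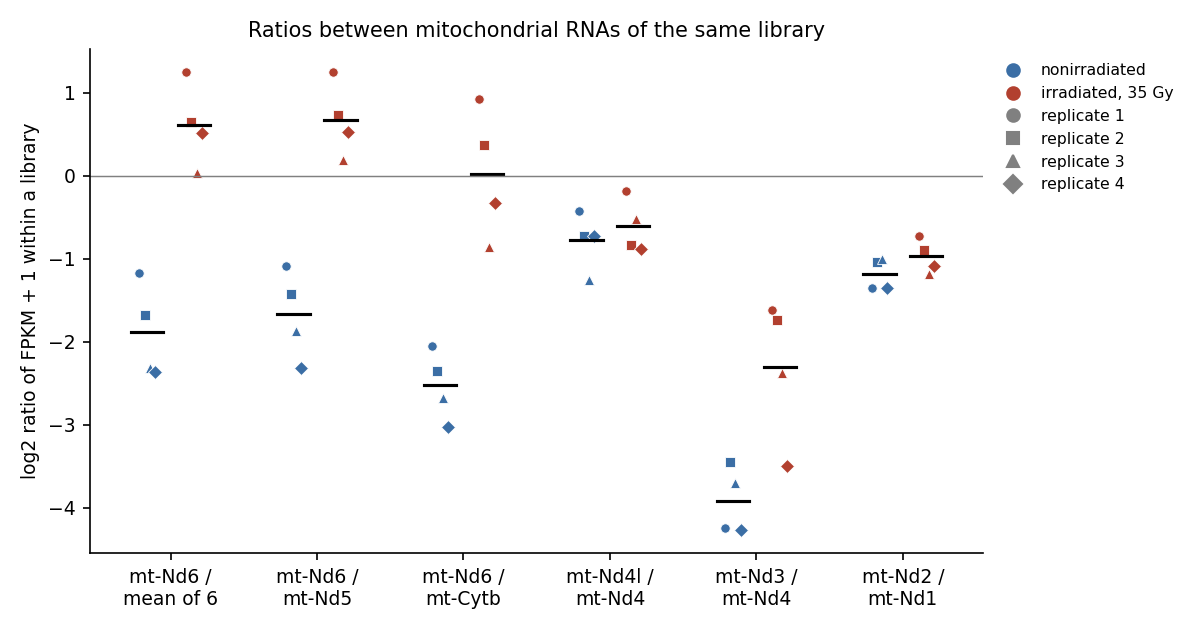
Log2 ratio of FPKM + 1 between mitochondrial RNAs of the same library, with 1 point per library, marker shape for the replicate number and black bars for the group means. The 3 ratios of mt-Nd6 to other RNAs differ between the groups without overlap. The ratios mt-Nd4l to mt-Nd4, mt-Nd3 to mt-Nd4 and mt-Nd2 to mt-Nd1 overlap, with differences of 0.18, 1.60 and 0.21 between the means.

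The table merges neighbouring genes into loci, and mt-Nd5, mt-Nd6 and mt-Cytb share 1 of them (chrM:11613-15288). The share of mt-Nd6 among the reads of these 3 genes was 23.2%, 17.4%, 9.92% and 13.4% in irradiated replicates 1 to 4. In nonirradiated replicates 1 to 4 it was 4.49%, 3.62%, 2.83% and 2.19%. mt-Nd5 held 40.5% to 46.8% of the same reads in irradiated and 44.4% to 49.7% in nonirradiated libraries, so the ranges of mt-Nd5 overlapped and those of mt-Nd6 did not.

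mt-Nd3, mt-Nd4l and mt-Nd4 share a longer locus (chrM:7766-11544) with 3 other table genes. There mt-Nd4 held 51.8% to 67.1% of reads in irradiated and 63.7% to 74.8% in nonirradiated libraries. mt-Nd3 held 0.849% to 2.75% and 0.517% to 1.04%, and mt-Nd4l 3.72% to 5.62% and 3.39% to 5.33%. The locus of mt-Nd1 (chrM:1094-3842) also spans the large mitochondrial ribosomal RNA gene mt-Rnr2, which was not analysed here. mt-Nd2 has the locus chrM:3845-5016 to itself apart from transfer RNAs.

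The 7 members together took 3.93% ± 0.236 of all recovered reads after irradiation and 8.30% ± 1.44 without it (SD, n = 4 each), with no overlap. Within these member reads mt-Nd6 made up 5.31% to 12.7% in irradiated and 0.887% to 2.14% in nonirradiated libraries. All 13 mitochondrial protein-coding genes took 8.02% ± 1.65 and 13.9% ± 2.16 (SD, n = 4 each). That sum includes mt-Co1, which ran from 0 to 224320 reads in nonirradiated and from 24574 to 190868 reads in irradiated libraries. When FPKM was scaled to genes outside mitochondrial DNA, a setting chosen after seeing the data, the log2 changes of the heavy-strand members ran from -1.90 (mt-Nd4) to -0.29 (mt-Nd3). mt-Nd6 was then at 1.30, while the median of all genes moved from -0.11 to -0.30. In bulk skin, fewer cells or mitochondria of a kind and less RNA in each cannot be told apart.

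The library preparation was strand-specific, per the labels, but whether the counting used strand is not given in the sources used here. The heavy-strand precursor runs antisense through mt-Nd6, so without strand its reads could not be told apart from those of mt-Nd6. mt-Co1, an oxidase subunit outside the 7, ranged from 0.000407 to 19100 FPKM in nonirradiated skin against 2127 to 16849 FPKM in irradiated skin. Whether such a value near 0 is a failed estimate was not tested. No member was listed near 0 in any library.

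Markers of skeletal muscle, a tissue rich in mitochondria, mostly had higher means in irradiated skin, though their summed levels overlapped between the groups. The 16 markers, among them Acta1, Ckm and the fast myosins, were all above 0 in all libraries, and 15 had a higher mean in irradiated skin. Their summed level was 5799 to 8774 FPKM in irradiated libraries, 6895 FPKM in nonirradiated replicate 1 and 2136 to 2626 FPKM in the other nonirradiated libraries. The direction was not particular to muscle: 6 of 8 skin, 5 of 6 white fat, 5 of 6 brown fat and 2 of 4 immune markers also had a higher mean in irradiated skin.

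In nonirradiated replicate 1, whose muscle level lay inside the irradiated range, mt-Nd4 was at 16303, mt-Nd4l at 12146, mt-Nd1 at 12750 and mt-Nd5 at 5985 FPKM, each above every irradiated library. mt-Nd6 was at 2821 FPKM there, below every irradiated library. mt-Nd2, at 4993 FPKM, was close to the irradiated libraries, and the members took 6.15% of reads, between the groups. This is a single library, and the part of muscle in the differences was not tested for any member. Brown fat markers were low, at 17.1 to 62.3 FPKM in sum over the 8 libraries, with Ucp1, the defining gene, at 0 in all. White fat markers summed to 1464 to 2323 FPKM in irradiated and 1183 to 1450 FPKM in nonirradiated libraries, and the 4 immune markers in the table to 17.0 to 71.5 and 34.4 to 46.4 FPKM.

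**Figure D4:**
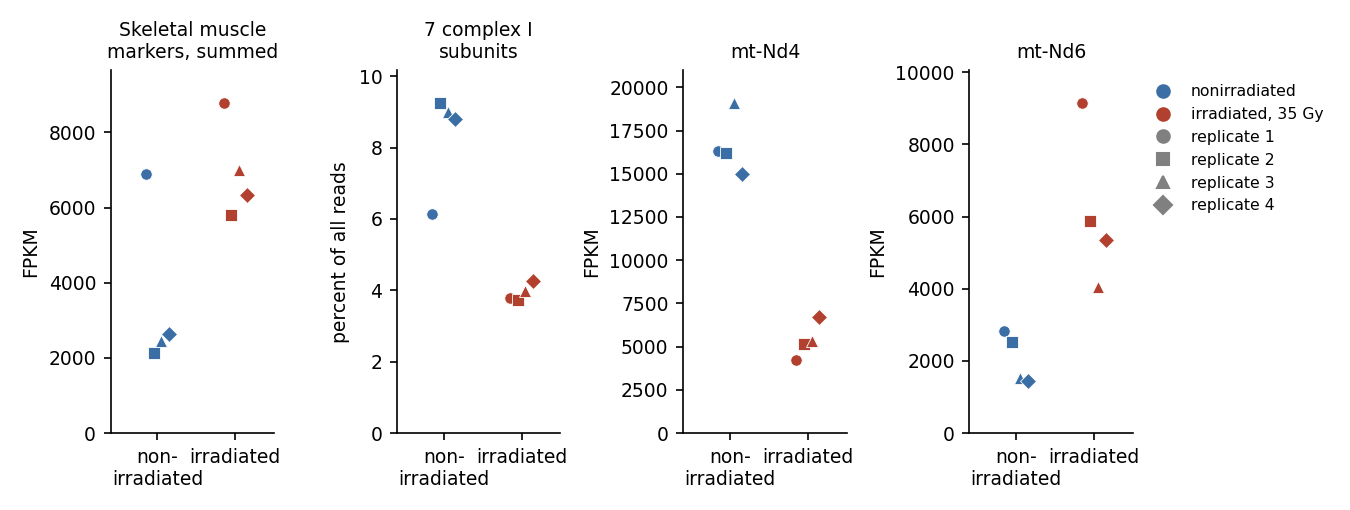
Summed FPKM of 16 skeletal muscle markers, percent of all reads taken by the 7 complex I subunits, and FPKM of mt-Nd4 and mt-Nd6, with 1 point per library and marker shape for the replicate number. Nonirradiated replicate 1 (circle) lies with the irradiated libraries for muscle markers, at 6895 FPKM, and with the nonirradiated libraries for mt-Nd4 and mt-Nd6. Its member reads, at 6.15%, lie between the irradiated and the other nonirradiated libraries.

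Within the groups, some members varied together and others did not. After each group's mean was subtracted, the Pearson correlation over the 8 libraries was 0.80 between mt-Nd1 and mt-Nd2, 0.52 between mt-Nd1 and mt-Nd5 and -0.17 between mt-Nd4l and mt-Nd4. mt-Nd6 was at -0.72 with mt-Nd1, -0.46 with mt-Nd4 and 0.50 with mt-Nd4l. These values describe 8 libraries that share their preparation and depth.

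Among 5138 other genes above 0 in every library and with a mean of at least 10 FPKM, those most like the mean of the heavy-strand members by the same measure were Vps13a (0.865), Cfdp1 (0.853), Srp9 (0.835), Ddit3 (0.812) and Parp14 (0.774). Those most like mt-Nd6 included Atp13a2 (0.978), Lancl1 (0.971), Setd7 (0.970) and Otud5 (0.962). Values of this size can arise by chance as the highest of 5138 correlations over 8 libraries, and no test of likeness was made. None of the 6 other mitochondrial genes was among the 5 most like either. Their correlations with the mean of the heavy-strand members ran from -0.819 (mt-Atp6) and -0.647 (mt-Co1) to 0.563 (mt-Atp8). mt-Cytb, which shares a locus with mt-Nd6, correlated with it at -0.322.

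Nuclear genes supply the remaining subunits of complex I, and their RNAs lay on both sides of 0. Of 37 nuclear subunits listed, 36 were in the table and all 36 were tested. In limma 0 passed an adjusted p of 0.05, where 0.248% of all genes did, and 6 had an unadjusted p under 0.05, 5 with higher and 1 with lower levels after irradiation. That is 6 of 36, beside 12.9% of all genes tested. On recovered reads 0 passed by edgeR and 1 by DESeq2, beside 1.08% and 6.19% of all genes. An unadjusted p under 0.05 was found for 1 of the 36 by edgeR and 2 by DESeq2, beside 1270 and 1743 of all 12296 genes tested. In all, 16 lay above 0 and 20 below, with a median log2 change of -0.05 beside -0.11 for all genes, and a median of 0.10 in edgeR. Without irradiated replicates 1 and 4, which had the fewest genes above 0, 23 lay above 0 and 13 below. The median in that setting, chosen after seeing the data, was 0.37 beside 0.02 for all genes. The groups of 2 did not overlap, both higher in irradiated skin, beside 3.99% of all genes in that direction.

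The accessory subunit Ndufs6, a zinc-binding protein needed for assembly of the NADH-oxidising module, had the smallest p. It was at 210, 171, 107 and 157 FPKM in irradiated and at 100, 49.7, 55.1 and 79.2 FPKM in nonirradiated libraries, with no overlap. The log2 change was 1.19 (SE 0.29), with an adjusted p of 0.120 in limma, 0.112 in edgeR and 0.00516 in DESeq2, where it was the 1 that passed.

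Ndufa6 was at 90.7 ± 16.6 against 52.2 ± 19.2 FPKM (SD, n = 4 each), with an adjusted limma p of 0.278. Ndufab1, the mitochondrial acyl carrier protein, was at 31.2 ± 14.3 against 15.2 ± 1.34 FPKM without overlap (SD, n = 4 each), with an adjusted limma p of 0.308. On recovered reads its direction turned, to -0.16 in edgeR. Ndufb11, a subunit of the membrane arm, was at 3.30 ± 5.94 against 8.24 ± 3.07 FPKM (SD, n = 4 each), with an adjusted limma p of 0.346. It was listed at 0 in irradiated replicates 2 and 4.

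Among the 7 nuclear core subunits, Ndufv1, which binds NADH, had a log2 change of 0.54 and Ndufs1, an iron-sulfur subunit, of -0.42, with limma adjusted p of 0.549 and 0.657. Ndufs7, another iron-sulfur subunit, was at -1.59 on that scale (adjusted p = 0.507 by limma), turned to 0.08 without irradiated replicates 1 and 4, and was listed at 0 in both. Listing at 0 was common: 14 of the 36 nuclear subunits stood at 0 in irradiated replicate 4, against 1 to 4 in the other irradiated libraries and 0 to 4 in nonirradiated ones.

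Of 18 assembly factors listed, which build complex I without staying in it, 14 were in the table and tested. In limma, edgeR and DESeq2 0 passed, beside 0.248%, 1.08% and 6.19% of all genes, and 1 had an unadjusted p under 0.05 in limma, beside 12.9%. In edgeR and DESeq2, which tested 11 of the 14, 0 had one, beside 1270 and 1743 of all 12296 genes tested. The median log2 change was -0.22, which was 0.14 with quantile normalization and -1.29 with a pseudocount of 0.1, beside -0.29 for all genes in that setting. Ndufaf6 was listed at 0 in all irradiated libraries and at 0 to 2.39 FPKM in nonirradiated ones (adjusted p = 0.325 by limma). Tmem126b had a log2 change of -1.31, which turned to 0.69 without irradiated replicates 1 and 4, Timmdc1 of 0.75 and Ndufaf3 of -0.58, which was 0.19 with quantile normalization, with limma adjusted p of 0.614, 0.671 and 0.675.

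A wider list held genes that transcribe mitochondrial DNA or process its RNA, together with genes of its replication (such as Polg and Peo1) and regulators of nuclear mitochondrial genes (such as Nrf1 and Ppargc1a), and most of it lay below 0. Of 41 symbols listed, 32 were in the table and tested, 24 of them below 0 and 8 above, with a median log2 change of -0.47 beside -0.11 for all genes. Irradiated replicate 4 stood at 0 for 10 of the 32 and replicate 1 for 8. Without these 2 libraries, a setting chosen after seeing the data, 17 lay below 0 and 15 above, with a median of -0.05 beside 0.02 for all genes. With a pseudocount of 0.1 the median was -0.90. In limma 0 passed, beside 0.248% of all genes, and 4 had an unadjusted p under 0.05, all lower, beside 12.9%. On recovered reads 0 passed in edgeR and 1 in DESeq2, beside 1.08% and 6.19% of all genes. An unadjusted p under 0.05 was found for 1 of the 32 in edgeR and 3 in DESeq2, beside 1270 and 1743 of all 12296 genes tested. For 4 of the 32 the groups did not overlap, all lower in irradiated skin, where 4.48% of all genes did not overlap in that direction.

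Mtpap, the polymerase that adds poly(A) tails to mitochondrial RNAs, was at 2.46, 6.82, 6.23 and 6.72 FPKM in irradiated and at 12.7, 13.6, 11.4 and 17.7 FPKM in nonirradiated libraries. The groups did not overlap, and the log2 change was -1.24 (SE 0.42). Its adjusted p was 0.249 in limma, 0.141 in edgeR and 0.0192 in DESeq2, where it was the 1 that passed.

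Fastkd5, which in human cells is needed to release mitochondrial messenger RNAs that are not flanked by transfer RNAs, was at 0.0483, 7.45, 8.39 and 0.351 FPKM in irradiated and at 13.6, 15.1, 13.5 and 25.8 FPKM in nonirradiated libraries. Irradiated replicates 1 and 4 were near 0, from 1 and 6 reads (adjusted p = 0.210 by limma). Fastkd2, of the same protein family, was at 5.58 ± 2.26 against 17.5 ± 14.9 FPKM (SD, n = 4 each), with an adjusted limma p of 0.344, also without overlap. Fastkd3 was at 1.72 ± 2.66 against 5.58 ± 1.97 FPKM (SD, n = 4 each), with an adjusted limma p of 0.327.

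**Figure D5:**
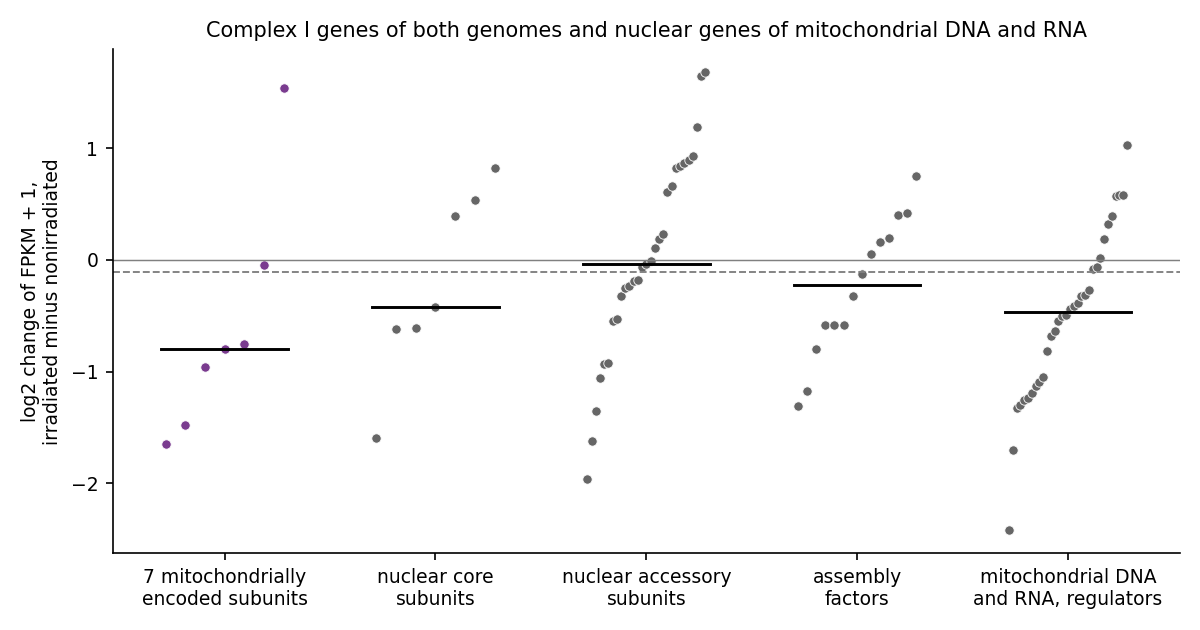
Log2 change of FPKM + 1, irradiated minus nonirradiated, with 1 point per gene, for the 7 mitochondrially encoded subunits and the tested genes of 4 lists. Black bars are medians, which are -0.80 for the 7 members and -0.47 for the genes of mitochondrial DNA and RNA with their regulators (-0.05 without irradiated replicates 1 and 4), and the dashed line is the median of all genes tested, -0.11. With quantile normalization the median of the 7 members is -0.05, with mt-Nd2 above 0, and that of the assembly factors turns to 0.14. With a pseudocount of 0.1 the latter is -1.29.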

How the data were processed

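The FPKM values and the estimated counts per gene were deposited by the authors in 1 table, per the file headers. The submitters' processing notes list cutadapt 1.9.3, HISAT2 2.0.4, Cufflinks, Cuffdiff and mm10 without saying what each was used for. Not given in the sources used here were the tool that wrote the table, its annotation and whether counting used strand. Deposited counts are mostly whole multiples of 1 step per library, between 0.8712 and 1.1048. Division by it came within 0.02 of a whole number for 92.64% to 96.64% of values under 2000 steps, and the rounded quotients are the recovered reads. They are not distinct molecules, and their precision covers counting error only.

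Under R 4.3.3, limma 3.58.1 (trend and robust options) was fitted to log2(FPKM + 1) of all 8 libraries for the 13324 genes whose mean reached 0.5 FPKM, with Benjamini-Hochberg adjustment over all of them at 0.05. This scale understates changes of low genes. edgeR 4.0.16 and DESeq2 1.42.0 were run on recovered reads. As a check of the code, all were also run on simulated counts with a common spread setting for every gene and changes in well-covered genes only. That check does not show how the tools behave on these libraries. The members, lists and tests were chosen with earlier results of these data known. Of each list the 4 genes of smallest p are named, and for likeness the 5 of highest correlation, except for items not reported here. A symbol in several rows was taken from the row with the highest mean. Other settings were another pseudocount (0.1), other filters (1 FPKM, none), 3 scalings, a replicate block and left-out libraries. Of the gene identifiers, 96.79% were found in GENCODE M21.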

Additional observations from a re-analysis of the deposited data

Results flagged for a closer look

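In 10 of 62 groups of 4 libraries examined, 1 library stood apart from the other 3 by a gap that exceeded Dixon's 95% critical value. Chance flags about 1 group in 20. Nonirradiated replicate 1 accounted for 3 of them. Its mt-Nd2 level was 4993 FPKM against 8851 to 9432 FPKM in the other nonirradiated libraries, its members took 6.15% of reads against 8.81% to 9.24%, and its skeletal muscle markers summed to 6895 FPKM against 2136 to 2626 FPKM. The part of muscle in the other 2 values was not tested. Irradiated replicate 2 had 2892 FPKM of mt-Nd4l against 3631 to 3708 FPKM in the other irradiated libraries. Among nuclear genes, irradiated replicate 3 was highest for Ndufs7, at 21.4 FPKM against 0 to 3.57 FPKM in the others of its group. It was also highest for Ndufb11, at 12.2 FPKM against 0 to 1.01 FPKM. Irradiated replicate 4 was highest for Ndufaf3, at 0.413 FPKM from 3 reads. The other irradiated libraries were all at 0 for Ndufaf3, where any value above 0 would be flagged. Mtpap was at 2.46 FPKM in irradiated replicate 1, below the 6.23 to 6.82 FPKM of its group. Nonirradiated replicate 4 was highest in its group for Fastkd2 (39.8 FPKM) and Fastkd5 (25.8 FPKM).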

How the results depend on the processing

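The count of 33 genes called over all genes in limma (16 higher, 17 lower) was 16 with the replicate block, 133 with edgeR and 748 with DESeq2 on recovered reads, 1 without irradiated replicates 1 and 4 (chosen after seeing the data), and between 4 (without nonirradiated replicate 2 or 3) and 72 (without nonirradiated replicate 1) when single libraries were left out. It was 18 without irradiated replicate 1 and 9 without nonirradiated replicate 4. Scaled to genes outside mitochondrial DNA, 16 were higher and 31 lower. The cause was not tested. Deviations of same-numbered libraries from their group means had correlations between -0.013 and 0.09, beside -0.088 to 0.079 for libraries of unlike number. Whether same-numbered libraries share a mouse is not given by the labels, and these correlations cannot decide it. Nuclear subunits called went from 0 to 1 with DESeq2, as did genes of mitochondrial DNA and RNA, and stayed at 0 in the other alternatives. Assembly factors stayed at 0 in all 18. Over those 18, the difference of mt-Nd6 from the heavy-strand members stayed within 1 SD of 2.49. Signs turned for mt-Nd2 (0.30) and Ndufaf3 (0.19) with quantile normalization and for Ndufab1 with edgeR (-0.16) and DESeq2 (-0.11). They also turned for Ndufs7 (0.08), Tmem126b (0.69) and mt-Nd3 (0.19) without irradiated replicates 1 and 4. mt-Nd3, at -0.05 in the main fit, was at 0.23 without irradiated replicate 4 and at 0.09 without nonirradiated replicate 2 or 3. Of the members, 1 passed lower without nonirradiated replicate 2, beside 4 of all 13324 genes in either direction. Without nonirradiated replicate 1, 4 passed lower, beside 72 of all genes. With quantile normalization 1 passed higher and 0 lower, beside 45 of all genes. With the replicate block 1 passed higher and 2 lower, beside 16 of all genes. The contrast was known when the members were selected, so nothing is read from these counts.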

Other observations

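Other factors of mitochondrial RNA, named after their values were seen, were as follows. Lrpprc, which binds and stabilises mitochondrial messenger RNAs, was at 29.1 ± 8.34 FPKM in irradiated and 24.9 ± 4.52 FPKM in nonirradiated libraries (SD, n = 4 each), with an adjusted limma p of 0.818. Tfb2m, a transcription factor of the mitochondrial promoters, was at 16.0 ± 4.16 against 16.7 ± 3.50 FPKM (SD, n = 4 each), with an adjusted limma p of 0.944. Polrmt, the mitochondrial RNA polymerase, ranged from 0 to 19.1 FPKM in irradiated and from 3.22 to 8.71 FPKM in nonirradiated libraries. Trmt10c, a subunit of the enzyme that cuts the 5′ ends of mitochondrial transfer RNAs, was at 6.54, 3.82, 6.88 and 0 FPKM in irradiated and at 8.39, 7.34, 8.37 and 9.48 FPKM in nonirradiated libraries, without overlap (limma adjusted p = 0.502).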
